A study of Mus with 8 samples.

Results

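The proteasome genes of B16F10, a pigmented mouse melanoma cell line, were followed through an experiment with the compound Butyroside D. They were taken as the rows of the authors' deposited table whose only gene symbol starts with Psma, Psmb, Psmc, Psmd, Psme, Psmf or Psmg and a digit, without the immunoproteasome genes Psmb8 and Psmb9. This gave 47 of 22206 transcript clusters, the units by which a Mouse Clariom S array reads transcripts. Of the samples, 4 were labelled as cells with 2 µM Butyroside D for 48 h and 4 as cells in medium alone for 48 h, each read on 1 array. All 8 came from this 1 cell line, with no genetic change named in the labels. One treatment label of the controls also names a lower dose, and they were taken as controls from their titles.

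The proteasome is the barrel-shaped protease that degrades proteins marked with ubiquitin. Its core is built of outer rings of alpha subunits (Psma), which form the gate, and inner rings of beta subunits (Psmb), some of which carry the cutting sites. A regulatory cap sits on the core. The base of the cap has a ring of ATPases (Psmc) that unfolds the substrate, and the lid (most of Psmd) removes its ubiquitin. Other activators (Psme), an inhibitor (Psmf1) and assembly chaperones (Psmg and a few of Psmd) act beside these. In mammalian cells the transcription factor encoded by Nfe2l1 raises many subunit genes together when proteasome activity falls short.

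By these roles the 47 genes comprised 16 of the core (8 Psma and 8 Psmb), 6 base ATPases, 14 Psmd genes, 5 Psme genes, Psmf1 and 4 Psmg genes. The remaining one, Psmc3ip, starts with the same letters but encodes a partner protein of meiotic recombination. It is no subunit and was kept apart. Of the 14 Psmd genes, Psmd1, Psmd2 and Psmd4 encode base subunits, Psmd5, Psmd9 and Psmd10 chaperones of base assembly, and the other 8 the lid itself. Psmb5, which carries the chymotrypsin-like site, was left out by this choice because its transcript cluster also carries the microRNA Mir686. The mean signal was not above background in either group for 6 genes, background being the highest median of the antigenomic control probe sets on any array, a log2 signal of 5.17. These were Psma8, Psmb10, Psmb11, Psme2b, Psmg3 and Psmg4, and values printed for them are not read as changes.

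Across all transcript clusters, arrays 1 and 2 of a group, and arrays 3 and 4 of a group, correlated with each other at 0.997 to 0.999, and arrays of different pairs at 0.986 to 0.993. Nothing in the labels ties the arrays to separate cultures. The p-values reflect array-to-array spread, which may be technical, and each group of 4 rests on 2 close pairs. The 7 melanocyte markers read 13.33 to 19.03 with Butyroside D and 13.15 to 19.02 in controls (group means, log2), while all 7 leukocyte and all 5 keratinocyte markers were below background. Of the fibroblast and endothelial markers, Col1a1 (5.30 with Butyroside D and 5.57 in controls), Vwf (5.25 and 5.45) and, in controls only, Col1a2 (5.18) lay just above it. A signal per array cannot tell apart fewer cells with a transcript from less transcript in each cell.

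No proteasome gene passed the threshold when all 8 arrays were compared. With limma, 0 of 47 had an adjusted p under 0.05 (Benjamini-Hochberg over all transcript clusters), against 0.117% of the array. At an unadjusted p under 0.05, 7 of 47 were higher with Butyroside D and 0 lower, against 9.84% and 8.07% of the array (17.9% in either direction). Of these 7, Psma8 was not above background. Among the 41 proteasome genes above background 6 were higher and 0 lower, against 11.9% and 8.24% of such transcript clusters (20.1% in either direction). The smallest adjusted p belonged to Psmd7 of the lid (0.086), followed by Psmb6 of the core (0.119) and Psmd13 of the lid (0.157). In sign, 33 of 47 log2 changes (Butyroside D minus control) were positive, against 51.5% of the array. Above background 30 of 41 were positive, against 53.1% of transcript clusters. The median over the 47 genes was 0.14, against 0.011 over the array. These medians covered opposite readings in the 2 pairs of treated arrays, which are given class by class below.

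**Figure D1:**
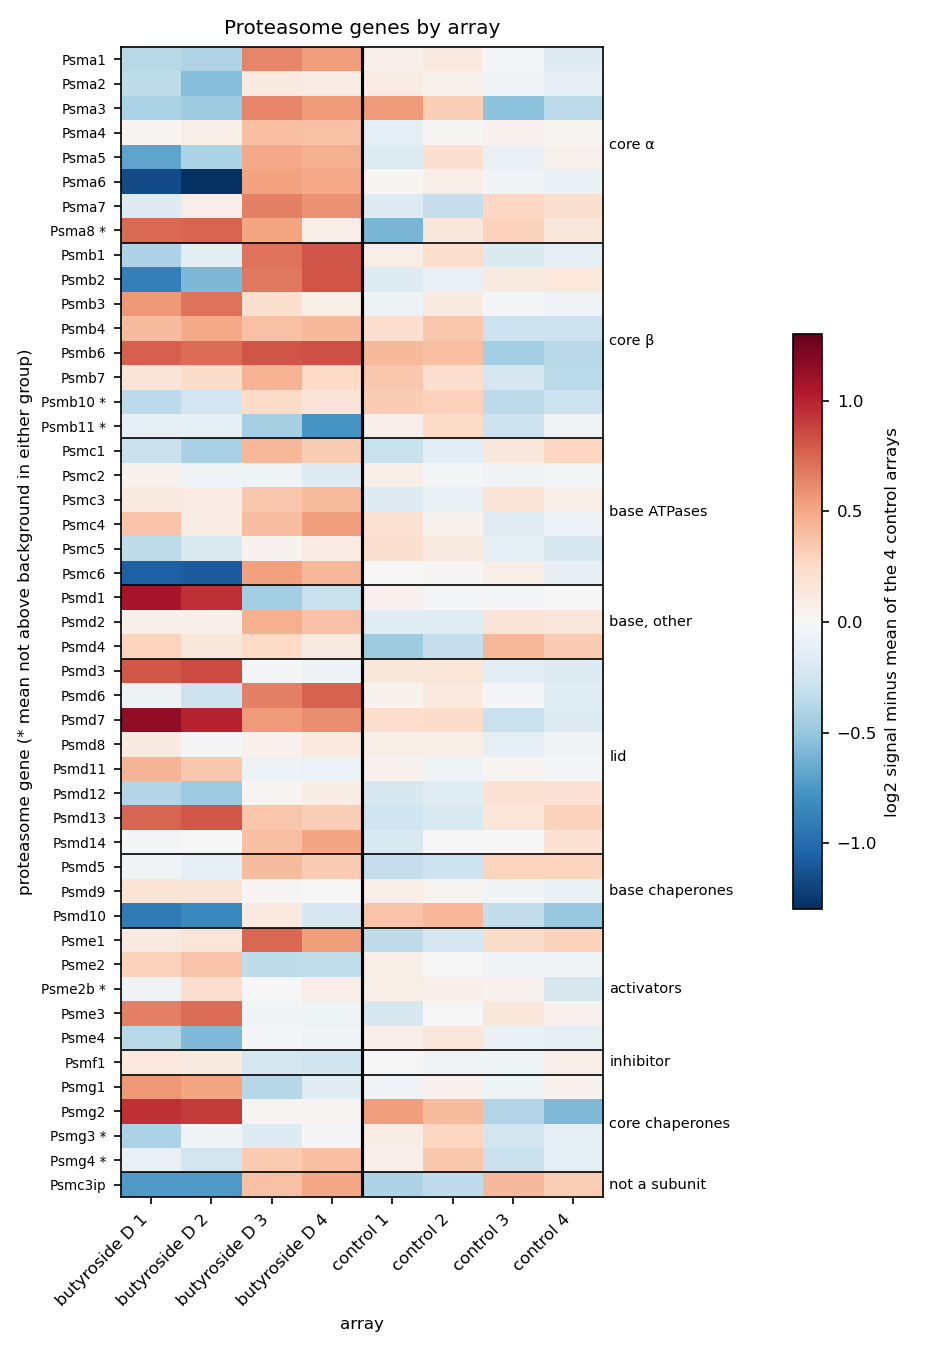
Each row is a proteasome gene and each column an array, and the colour gives the log2 signal minus the mean of the 4 control arrays of that gene. Genes are grouped by role, and an asterisk marks the 6 genes whose mean was not above background in either group. Psma6, Psmc6 and Psmb2 are low in butyroside D arrays 1 and 2 and high in arrays 3 and 4, while Psmd1 shows the opposite.

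In the alpha rings, the 2 pairs of treated arrays lay on opposite sides of all 4 controls for 3 of 8 genes, Psma6, Psma1 and Psma5. Their order, first pair below and second above, was found in 4.96% of the array and 8.45% of transcript clusters above background. Psma6, an alpha ring subunit, had log2 signals of 11.42, 11.23, 13.11 and 13.07 in the 4 Butyroside D arrays (replicates 1 to 4), against 12.61, 12.67, 12.55 and 12.50 in the 4 control arrays. The first treated pair was thus below every control array and the second above every one. Its log2 change over all 8 arrays was -0.37 ± 0.41 (SE, n = 4 per group), with 12.21 ± 1.02 with Butyroside D and 12.58 ± 0.072 in controls (SD). The same split held for Psma1, at 11.46, 11.43, 12.46 and 12.37 with Butyroside D, against 11.89, 11.95, 11.80 and 11.66 in controls. Psma5 read 8.37, 8.65, 9.54 and 9.52 with Butyroside D, against 8.88, 9.27, 8.96 and 9.12 in controls, again with the first pair below and the second above all controls.

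The other alpha genes followed this order of the treated pairs less sharply. Psma2 was below all controls in the first treated pair (9.92 and 9.70) but overlapped them in the second (10.37 and 10.35), against control signals of 10.15 to 10.36. Psma4 and Psma7 overlapped the controls in the first treated pair and lay above them in the second, by 0.39 and 0.62 on the log2 scale. Psma3 had 9.76, 9.69, 10.80 and 10.72 with Butyroside D, against 10.72, 10.49, 9.64 and 9.82 in controls. Its control pairs differed by 0.88, so neither treated pair left the range of the controls by both arrays. In all 7 of these alpha genes treated arrays 3 and 4 were higher than treated arrays 1 and 2, by 0.33 (Psma4) to 1.76 (Psma6). The same order held for 44.8% of the array and 53.1% of transcript clusters above background. Psma8, the testis form, was not above background in either group (3.89 ± 0.31 with Butyroside D and 3.36 ± 0.40 in controls, SD, n = 4 each).

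In the beta rings, Psmb6 and Psmb4 had close values in all 4 treated arrays. Psmb6, which carries the caspase-like cutting site, had 12.08, 12.03, 12.12 and 12.13 with Butyroside D, against 11.72, 11.69, 10.86 and 10.94 in controls. All 4 treated arrays lay above all 4 controls, and the control pairs differed by 0.80 from each other while the treated pairs differed by 0.073. The log2 change was 0.79 ± 0.21 (SE, n = 4 per group), a fold of 1.73, with an adjusted p of 0.119 (limma). Against control arrays 3 and 4 alone it was 1.19 ± 0.12, with an adjusted p of 0.0386 (limma), but this rests on 1 close pair of controls. Control arrays 1 and 2 read nearer to the treated arrays. Against that control pair alone, 0 of 47 proteasome genes passed, the smallest adjusted p being 0.111 for Psmd4 (limma).

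Psmb4, a structural beta subunit, was likewise above all controls in every treated array, with 11.53, 11.62, 11.50 and 11.54 with Butyroside D, against 11.34, 11.47, 10.84 and 10.84 in controls. Its log2 change was 0.43 ± 0.17 (adjusted p = 0.231, limma). Psmb7, which carries the trypsin-like site, averaged 12.88 ± 0.12 with Butyroside D and 12.60 ± 0.34 in controls (SD, n = 4 each), and the groups overlapped. Psmb3, a structural subunit, had 10.85, 10.99, 10.49 and 10.36 with Butyroside D, against 10.22, 10.40, 10.27 and 10.24 in controls, so that here treated arrays 1 and 2 were the higher pair. The transcript cluster that Psmb5 shares with the microRNA Mir686 averaged 8.44 ± 0.18 with Butyroside D and 7.99 ± 0.34 in controls (SD, n = 4 each), with overlap between groups.

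The structural subunits Psmb2 and Psmb1 were split like the alpha genes. Psmb2 had 9.83, 10.14, 11.41 and 11.54 with Butyroside D, against 10.55, 10.64, 10.84 and 10.86 in controls. Its first treated pair was below all controls by 0.74 on average and its second above by 0.75, which left a change of 0.007 over all arrays. Psmb1 had 11.91, 12.18, 13.02 and 13.13 with Butyroside D, against 12.40, 12.54, 12.12 and 12.19 in controls, so only the second treated pair stood clear of the controls. Psmb10, which replaces the trypsin-like subunit in the immunoproteasome, and Psmb11, the thymus form of the chymotrypsin-like subunit, were not above background in either group. For the whole core the median log2 change was 0.16, with 11 of 16 positive, and it was 0.22 over the 13 core genes above background. The median over all 16 was, however, 0.0052 without treated array 4, 0.0096 without treated array 3 and 0.29 without treated array 1.

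**Figure D2:**
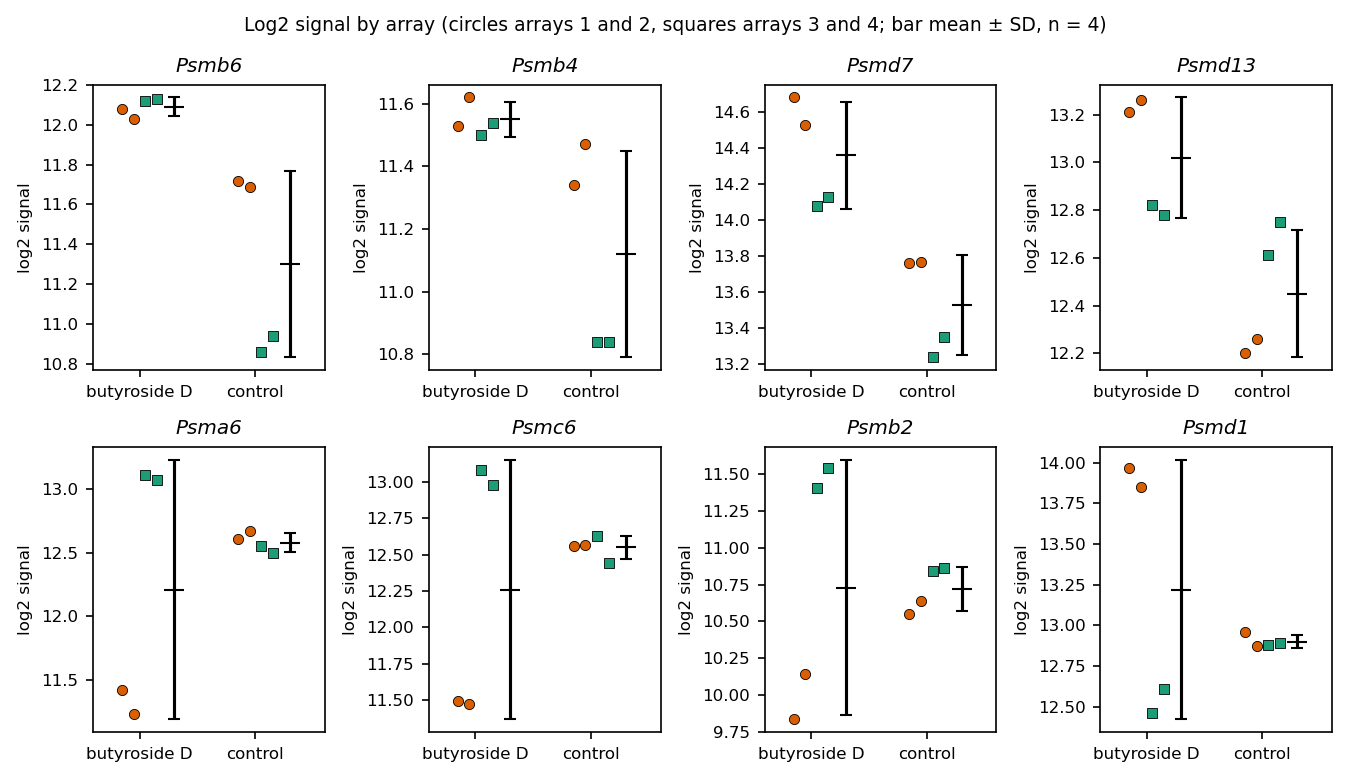
Log2 signal on each array for 8 proteasome genes, Butyroside D left and control right, with the mean and SD of the 4 arrays beside the points. In the upper row all 4 treated arrays lie above all 4 controls, and in the lower row the treated pairs (circles for arrays 1 and 2, squares for arrays 3 and 4) lie on opposite sides of the controls.

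The 6 ATPases of the base had no common direction over all arrays, with 3 positive and 3 negative log2 changes and a median of -0.020, which ran from -0.091 to 0.063 when 1 array was left out. Psmc6 was the most divided, with 11.49, 11.47, 13.08 and 12.98 with Butyroside D, against 12.56, 12.57, 12.63 and 12.44 in controls. Psmc1 showed a like order at smaller size, with 12.48, 12.35, 13.20 and 13.10 with Butyroside D, against 12.48, 12.63, 12.91 and 13.05 in controls. In both genes the first treated pair was below, and the second above, all 4 control arrays. For Psmc1 this separation is thin, since treated and control array 1 both read 12.48 to 2 decimals.

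Psmc4 had the highest change of the ATPases, 0.35 ± 0.14 (SE, n = 4 per group, adjusted p = 0.237, limma), with 11.53, 11.26, 11.56 and 11.70 with Butyroside D, against 11.35, 11.21, 11.00 and 11.08 in controls. Psmc3 averaged 13.80 ± 0.16 with Butyroside D and 13.56 ± 0.15 in controls, and Psmc5 averaged 11.05 ± 0.20 and 11.14 ± 0.19 in the same groups (SD, n = 4 each). Psmc2 varied little, at 13.92 to 14.14 with Butyroside D and 14.05 to 14.17 in controls. Treated arrays 3 and 4 exceeded treated arrays 1 and 2 in 5 of the 6 ATPases, Psmc2 being the exception at -0.11. They did so in 44.8% of the array and 53.1% of transcript clusters above background.

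Among the base subunits named Psmd, Psmd1 and Psmd2 are the large scaffolds and Psmd4 is a ubiquitin receptor. Psmd1 had 13.97, 13.85, 12.46 and 12.61 with Butyroside D, against 12.96, 12.87, 12.88 and 12.89 in controls. Its first treated pair was above every control, by 1.01 on average, and its second below every control, with an average difference of -0.37. Psmd2 had 13.32, 13.32, 13.71 and 13.63 with Butyroside D, against 13.09, 13.10, 13.42 and 13.40 in controls, and only the second treated pair lay above all controls. Psmd4 had 12.04, 11.90, 12.01 and 11.87 with Butyroside D, against 11.29, 11.45, 12.19 and 12.09 in controls, where the treated arrays fell between the 2 control pairs.

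The lid had 7 of 8 positive log2 changes with a median of 0.25. Psmd7, the inactive partner of the lid's deubiquitinase, had 14.68, 14.53, 14.08 and 14.13 with Butyroside D, against 13.76, 13.77, 13.24 and 13.35 in controls. Every treated array was above every control, and the log2 change was 0.83 ± 0.19 (SE, n = 4 per group), a fold of 1.77, with an adjusted p of 0.086 (limma). Psmd13, a lid scaffold subunit, had 13.21, 13.26, 12.82 and 12.78 with Butyroside D, against 12.20, 12.26, 12.61 and 12.75 in controls. It was the second lid gene without overlap, at 0.56 ± 0.18 (adjusted p = 0.157, limma), although treated array 4 and control array 4 were close together. In all, 4 of 47 proteasome genes had every treated array above every control (8.51%) and 0 had every one below, against 6.98% and 5.93% of the array, or 9.03% and 6.28% of transcript clusters above background.

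The deubiquitinase itself, Psmd14, had 11.46, 11.49, 11.87 and 11.99 with Butyroside D, against 11.28, 11.49, 11.48 and 11.67 in controls, with only the second treated pair above all controls. Psmd6 had 9.41, 9.21, 10.13 and 10.24 with Butyroside D, against 9.52, 9.60, 9.45 and 9.32 in controls, and was split in the same way. Psmd3 had the opposite order, with 14.17, 14.21, 13.35 and 13.30 with Butyroside D, against 13.51, 13.52, 13.23 and 13.20 in controls. Psmd11 was also higher in the first treated pair, by 0.40 over the controls, against -0.073 in the second. Psmd12 was the only negative one of the 8, at -0.18 ± 0.18, and Psmd8 differed by 0.075 ± 0.12 (log2 change ± SE, n = 4 per group).

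Of the chaperones that build the base, Psmd10 had the lowest log2 change of any proteasome gene, at -0.46 ± 0.29 (SE, n = 4 per group, adjusted p = 0.426, limma). Its signals were 7.90, 7.98, 8.95 and 8.60 with Butyroside D, against 9.19, 9.25, 8.50 and 8.33 in controls, so only the first treated pair was below all controls. Psmd5 averaged 8.28 ± 0.26 with Butyroside D and 8.13 ± 0.34 in controls, and Psmd9 averaged 8.19 ± 0.095 and 8.10 ± 0.075 in the same groups (SD, n = 4 each).

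The activators that open the core without the ATPase cap differed among themselves. Psme1, a chain of the interferon-inducible activator, had 9.73, 9.77, 10.36 and 10.16 with Butyroside D, against 9.29, 9.40, 9.86 and 9.92 in controls. Its log2 change was 0.39 ± 0.20 (adjusted p = 0.339, limma). Psme2, its partner chain, had 9.21, 9.28, 8.59 and 8.59 with Butyroside D, against 8.99, 8.91, 8.88 and 8.87 in controls, so its treated pairs lay on either side of the controls and its change over all arrays was 0.004. Part of the signal of Psme2 could come from its near copy Psme2b, which was itself not above background. Psme3, the nuclear activator, had 15.60, 15.67, 14.91 and 14.89 with Butyroside D, against 14.74, 14.95, 15.09 and 15.00 in controls. Psme4, another nuclear activator, had 12.74, 12.53, 13.09 and 13.07 with Butyroside D, against 13.17, 13.25, 13.02 and 12.98 in controls. For both of these genes only the first treated pair left the control range, upward for Psme3 and downward for Psme4.

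The core inhibitor gene Psmf1 averaged 11.15 ± 0.22 with Butyroside D and 11.21 ± 0.064 in controls (SD, n = 4 each). Psmg1, a chaperone of alpha ring assembly, had 10.45, 10.40, 9.52 and 9.74 with Butyroside D, against 9.85, 9.94, 9.83 and 9.94 in controls, and its treated pairs again lay on opposite sides. Psmg2, its partner in the same chaperone, had 11.85, 11.81, 10.93 and 10.93 with Butyroside D, against 11.44, 11.31, 10.52 and 10.32 in controls. Only the first treated pair of Psmg2 was above all controls, whose pairs differed by 0.96, and its change was 0.49 ± 0.31 (SE, n = 4 per group, adjusted p = 0.442, limma). Psmc3ip, which is no subunit, had 7.81, 7.81, 8.92 and 9.04 with Butyroside D, against 8.14, 8.21, 8.96 and 8.86 in controls.

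**Figure D3:**
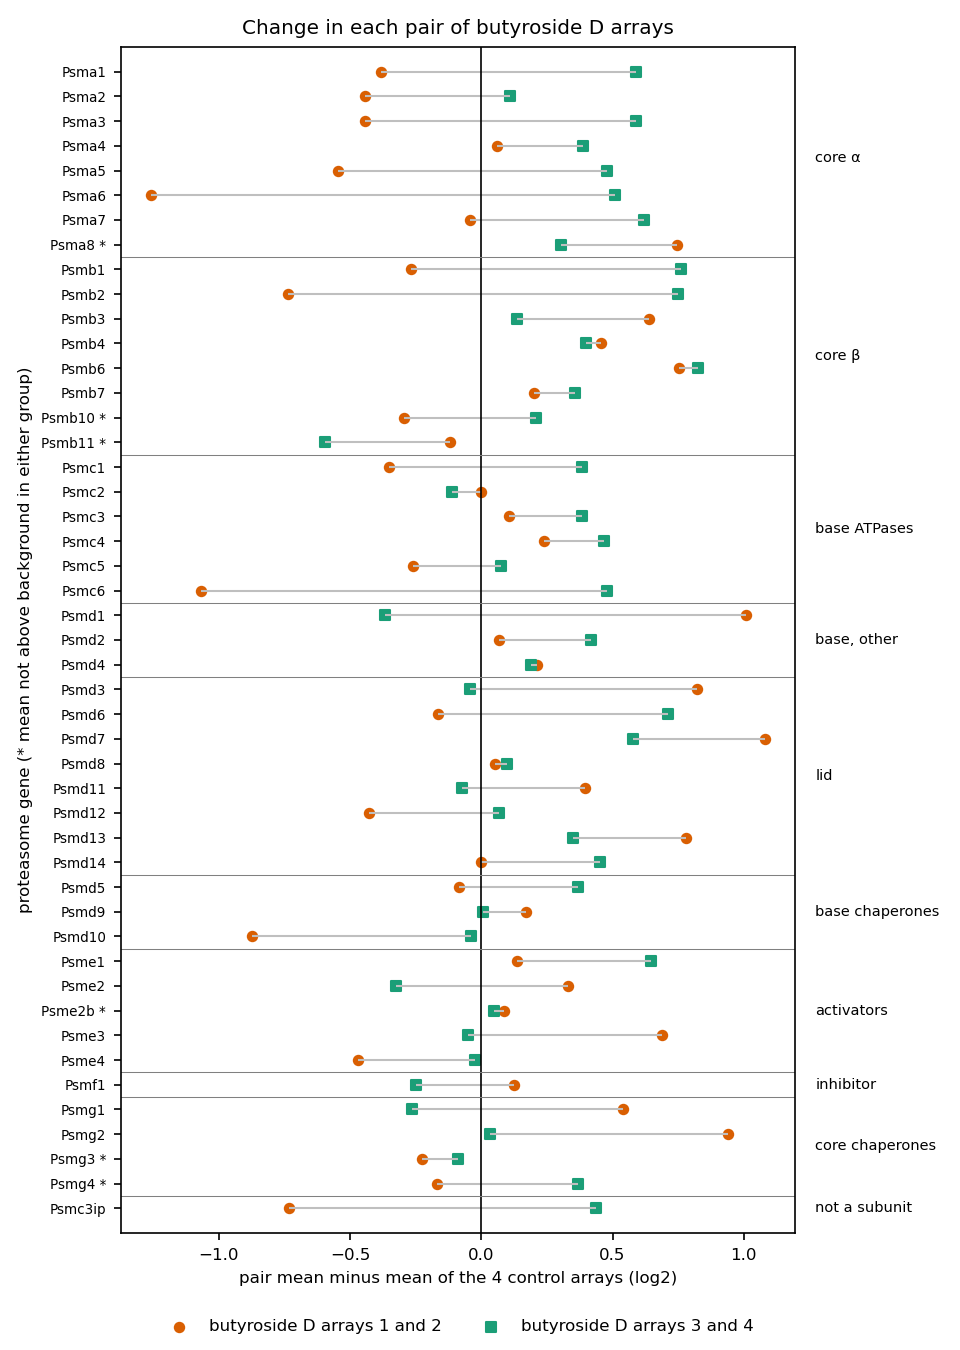
The mean of each pair of butyroside D arrays minus the mean of the 4 control arrays (log2) for each of the 47 genes, circles for arrays 1 and 2 and squares for arrays 3 and 4. Among the alpha genes above background the squares lie right of the circles in all 7, while Psmd1, Psmd3, Psme3, Psmg1 and Psmg2 have the circle to the right.

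Taken by pair and relative to the mean of the controls, the core and the ATPases stood mostly on the high side in treated arrays 3 and 4. In treated arrays 1 and 2 the alpha genes and the ATPases stood mostly on the low side, but the beta genes did not. The median core difference was -0.19 in arrays 1 and 2 (6 of 16 positive) and 0.44 in arrays 3 and 4 (15 of 16 positive). Within the core, the alpha genes had -0.41 (2 of 8 positive) and 0.49 (8 of 8 positive). The beta genes had 0.041 (4 of 8 positive) and 0.38 (7 of 8 positive). Psma8, Psmb10 and Psmb11, which are not above background, are counted in these values. For the ATPases the medians were -0.13 (2 of 6 positive) and 0.38 (5 of 6 positive) in the same pairs. The 14 Psmd genes had 0.12 (9 positive) and 0.14 (10 positive). Over the whole array the medians were 0.038 (53.4% positive) and -0.011 (48.7% positive). Among transcript clusters above background they were -0.0046 (49.6% positive) and 0.054 (57.2% positive). Other lists were divided in the same way. The 13 eIF3 genes, described further on, had medians of -0.25 and 0.26. The 7 melanocyte markers had -0.054 and 0.31, with 6 of these 7 above all controls in treated arrays 3 and 4. That was so for 18.9% of the array and 25.7% of transcript clusters above background.

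Arrays within a pair differed little in these genes. The mean absolute difference between 2 arrays of a pair had a median of 0.095 over the 47 genes. The absolute difference between treated pairs had a median of 0.50, and that between control pairs 0.30. Over the whole array these 3 medians were 0.14, 0.35 and 0.26. The differences between treated pairs were therefore larger than the spread within pairs, and the labels do not say what sets the pairs apart. The antigenomic background moved with the treated pairs, at 5.17 and 5.07 in treated arrays 1 and 2 and 4.70 and 4.69 in arrays 3 and 4, against 4.83 to 4.95 in the 4 control arrays (median log2 signal). The median signal of all transcript clusters was 5.44 in both treated arrays 1 and 2 and 5.31 and 5.30 in arrays 3 and 4, against 5.39 to 5.41 in controls. The part of these differences in the results was not tested.

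Both arrays of the treated pair 3 and 4 were above all 4 controls in 20 of 47 genes (42.6%), against 18.9% of the array, and below them in 7 (14.9%), against 19.3%. In the treated pair 1 and 2, both were above all controls in 15 (31.9%), against 27.4%, and below in 11 (23.4%), against 23.0%. Since most proteasome genes are well expressed, transcript clusters above background give a closer comparison, with 25.7% above and 16.6% below for arrays 3 and 4. For arrays 1 and 2 the same shares were 29.7% and 30.5%. Other lists were as high in arrays 3 and 4. Of the proteasome partners, COP9 genes and eIF3 genes, described further on, 44.8%, 40% and 53.85% were above all controls. Of the melanocyte markers 85.7% were. In the same order of lists, 20.7%, 0%, 7.69% and 0% were below. The first pair below and the second above all controls was seen in 6 genes, Psma1, Psma5, Psma6, Psmb2, Psmc1 and Psmc6, all of the core or its ATPase ring (4.96% of the array and 8.45% of transcript clusters above background). The opposite was seen in 5, Psmd1, Psmd11, Psme2, Psmf1 and Psmg1, none of which is in the core or the ATPase ring (4.43% of the array and 4.35% of transcript clusters above background). The first order was not particular to these genes. It was also seen in 6 of 29 partners, 1 of 10 COP9 genes, 3 of 13 eIF3 genes and 2 of 7 melanocyte markers. The opposite order was seen in 3, 0, 0 and 0 of the same lists.

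**Figure D4:**
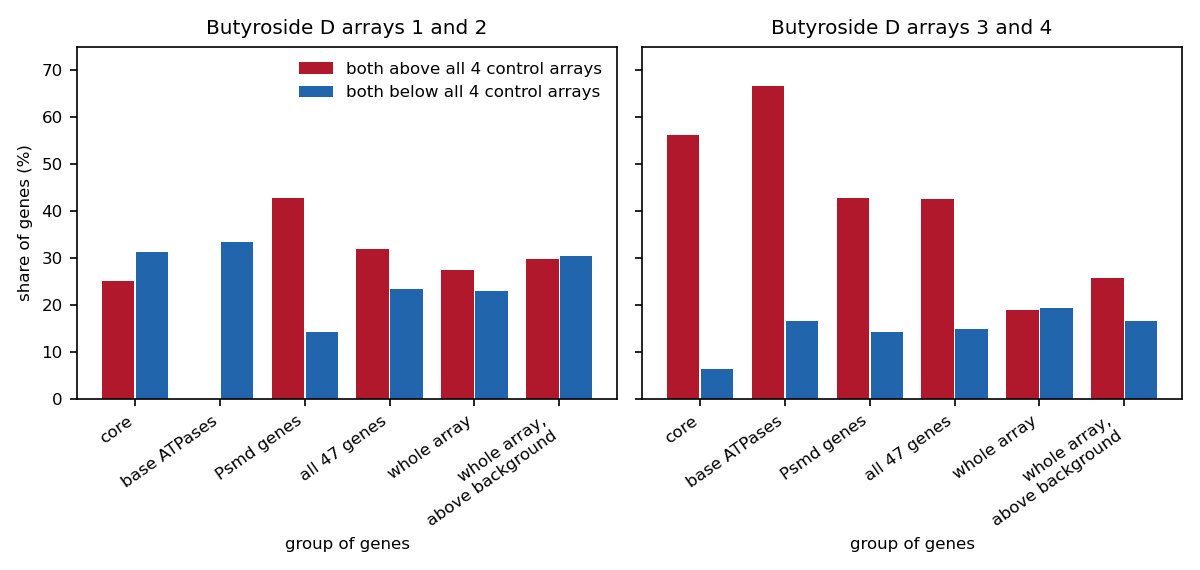
Share of genes whose 2 treated arrays of a pair were both above (red) or both below (blue) all 4 control arrays, for core, ATPase and Psmd genes, all 47 genes, the whole array and its transcript clusters above background, left for butyroside D arrays 1 and 2 and right for arrays 3 and 4. In arrays 3 and 4 the share above is 56.2% for the core and 42.6% for all 47 genes. It is 18.9% for the array and 25.7% for its transcript clusters above background.

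When limma compared 1 treated pair with the 4 controls, different genes passed. These fits, like that of all 8 arrays, take the 2 arrays of a pair as independent, so their p-values are too small. With treated arrays 3 and 4 alone, 4 of 47 had an adjusted p under 0.05, all higher, against 2.14% of the array higher and 1.82% lower. These were Psmd6 (0.71 ± 0.12, log2 change ± SE), Psmb2 (0.75 ± 0.13), Psmb1 (0.76 ± 0.15) and Psma1 (0.59 ± 0.13). With treated arrays 1 and 2 alone, 8 were higher (13.9% of the array) and 6 lower (10.8% of the array). The higher ones were Psmd7 (1.08 ± 0.19), Psmd1 (1.01 ± 0.11), Psmd3 (0.82 ± 0.14), Psmd13, Psme3, Psmb3, Psmg1 and Psmd11. The lower ones were Psma6 (-1.26 ± 0.12), Psmc6 (-1.07 ± 0.12), Psmb2 (-0.74 ± 0.15), Psma5, Psme4 and Psma2. Psmb2 passed in both fits with opposite signs, and a limma fit that takes close pairs as a random block called 0 of 47, with 3 at an unadjusted p under 0.05, against 4.01% of the array.

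The authors' deposited table of the same comparison gives 1 average per group and no values per sample. Its control average was within 0.19 of the mean of the 4 control arrays for each of the 47 genes, so the authors' deposited table shares its controls with the comparisons above. Its treated average was not an average of the 4 treated arrays, since for some genes it lay above each of them. For Psmd4 it was 12.54, against 11.87 to 12.04 in the treated arrays. What it rests on could not be traced. For 35 of the 47 genes (74.5%) the treated average in the authors' deposited table was nearer to treated arrays 3 and 4 than to arrays 1 and 2, against 64.7% of the array, with median absolute differences of 0.20 and 0.59. Its values are therefore given on their own.

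In the authors' deposited table, 41 of 47 proteasome genes were higher with Butyroside D, against 45.6% of the array and 49.5% above background. The median log2 difference was 0.36 in the authors' deposited table, against -0.030 over the array. Lists described further on were also mostly higher in the authors' deposited table. There 12 of 13 eIF3 genes (median 0.32), 8 of 10 COP9 genes (0.31) and 20 of 29 proteasome partners (0.20) were higher. The threshold of an FDR under 0.05 was passed by 3 of 47 (6.38%), all higher, in the authors' deposited table, against 0.896% of the array higher and 1.56% in either direction (1.49% and 2.41% above background). These were Psmd2 (13.87 with Butyroside D and 13.25 in controls, FDR 0.0244), Psmd4 (12.54 and 11.76, FDR 0.0322) and Psmb4 (11.78 and 11.11, FDR 0.0409) in the authors' deposited table. From the 8 arrays their log2 changes were 0.24 ± 0.15, 0.20 ± 0.21 and 0.43 ± 0.17 (SE, n = 4 per group). For all 3, the treated average in the authors' deposited table lay above every treated array (highest array 13.71, 12.04 and 11.62). At an unadjusted p under 0.05, 19 of 47 (40.4%) were higher and 0 lower in the authors' deposited table, against 7.62% and 8.67% of the array (10.9% and 9.16% above background). By the same measure 4 of 13 eIF3 genes, 3 of 10 COP9 genes and 8 of 29 partners were higher in the authors' deposited table, and 1 partner was lower.

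By class, the authors' deposited table had 13 of 16 core genes higher with a median log2 difference of 0.555, and the 3 lower ones were Psma8, Psmb10 and Psmb11, which are not above background. All 7 other alpha genes were higher in the authors' deposited table, from 0.21 for Psma4 to 0.87 for Psma5. The cutting subunits Psmb6 and Psmb7 had 0.73 and 0.31 in the authors' deposited table, with FDR of 0.334 and 0.44. All 6 ATPases were higher with a median of 0.47, from 0.27 for Psmc4 to 0.72 for Psmc1, in the authors' deposited table. All 8 lid genes were higher in the authors' deposited table, with a median of 0.335 and Psmd6 the highest at 0.77. Besides the 3 dim genes, Psmd1 (-0.28), Psme3 (-0.14) and Psmg1 (-0.32) were lower in the authors' deposited table, and none of the 6 lower genes had an unadjusted p under 0.05 there.

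**Figure D5:**
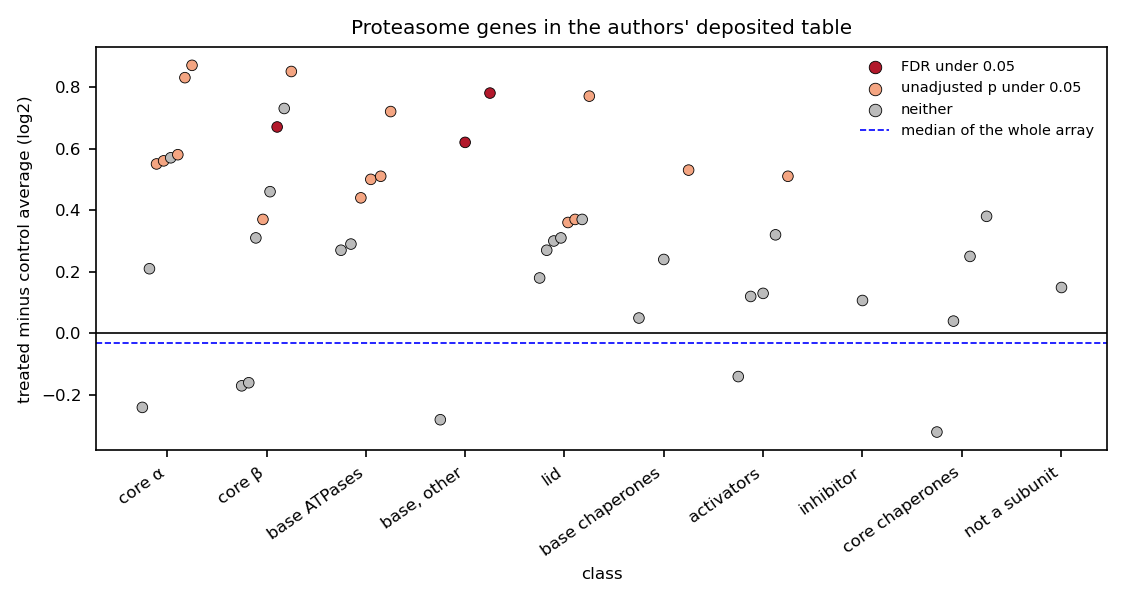
Treated minus control average (log2) of each proteasome gene in the authors' deposited table, by role, coloured by that table's FDR and p. All base ATPases and lid genes lie above 0, the dashed line marks the median of the whole array (-0.030), and the 3 low core genes are Psma8, Psmb10 and Psmb11, which are not above background.

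Partners of the proteasome were read from a list of chaperones, ubiquitin receptors, shuttles and regulators. None of its 29 measured genes had an adjusted p under 0.05 (limma). At an unadjusted p under 0.05, 6 of 29 were higher and 0 lower, against 9.84% and 8.07% of the array. Among transcript clusters above background these shares were 11.9% and 8.24%. A positive log2 change was found in 20 of 29, against 51.5% of the array, with a median of 0.16. Among these 6 were Ufd1l, a cofactor of the segregase VCP (0.56 ± 0.21), and Uba1, the main ubiquitin-activating enzyme (0.49 ± 0.19, log2 change ± SE, n = 4 per group). Shfm1 (now Sem1), the small lid subunit, had 13.40, 13.39, 14.22 and 14.16 with Butyroside D, against 13.44, 13.35, 13.66 and 13.68 in controls. It was the only listed partner past the FDR threshold of the authors' deposited table, with a log2 difference of 0.89 and an FDR of 0.0216. Nfe2l1, the transcription factor named above, had 16.22, 16.26, 15.76 and 15.64 with Butyroside D, against 15.97, 15.94, 15.99 and 16.12 in controls, with the first treated pair above and the second below all controls.

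The COP9 signalosome, which removes NEDD8 from cullins, and the translation factor eIF3 are built on the same plan as the lid. Of 10 COP9 genes, 9 had a positive log2 change, against 51.5% of the array, with a median of 0.17. At an unadjusted p under 0.05, 2 were higher and 0 lower, against 9.84% and 8.07% of the array. The COP9 gene Myeov2 (now Cops9) passed the adjusted threshold, which 0.117% of the array did, at 2.15 ± 0.27 (SE, n = 4 per group, adjusted p = 0.0284, limma). That call was lost with the close pair as a random block (adjusted p = 0.279) and without any 1 array (adjusted p of 0.0649 to 0.145). In the authors' deposited table its log2 difference was 0.94 with an FDR of 0.137. Cops6, whose protein pairs with the COP9 protease as Psmd7 does with the lid enzyme, was at 0.60 ± 0.21 and Cops2 at -0.54 ± 0.28. Of 13 eIF3 genes, 8 were positive, against 51.5% of the array, with a median of 0.13. At an unadjusted p under 0.05 (limma), 3 were higher and 1 lower, against 9.84% and 8.07% of the array. Among transcript clusters above background these 2 shares were 11.9% and 8.24%. The eIF3 genes with the smallest p were Eif3k (0.42 ± 0.14), Eif3g (0.38 ± 0.14) and Eif3d (0.34 ± 0.12), none past the threshold. Eif3g had a log2 difference of 0.75 and an FDR of 0.0379 in the authors' deposited table.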

How the data were processed

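B16F10 cells were read on 8 arrays, 4 per group. Expression Console (Affymetrix), Transcriptome Analysis Console and RMA are listed, without versions, in the submitters' processing notes. The deposited value table holds log2 signals. The authors' deposited comparison table holds a log2 average per group, a signed linear fold change (a score, below 1 written as the negative inverse, per the file headers), and a p-value with its FDR from a test not given in the sources used here. No coordinates are printed, as no build is named. All 47 symbols matched RefSeq's mouse gene table.

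From 28846 features, 6640 control probe sets were set aside. Butyroside D minus control was tested over 22206 transcript clusters with limma 3.58.1 in R 4.3.3 (lmFit, eBayes, two-sided), with Benjamini-Hochberg adjustment and a threshold of 0.05, after a check on simulated data. The simulated arrays were independent, unlike the close pairs here, so the check cannot give the error rate for paired arrays. No replicate block was used. The number of arrays limits the precision. Members and lists were chosen with earlier results of these data known. Named by rule were genes called in either source, the highest, lowest and smallest-p gene of each class, the cutting subunits, Psmd2, Psmd4, Psmd14, dim genes and the top 3 of each partner list (1 of these is not reported here); other names were chosen after their values were seen. Alternatives were centring, quantile normalization, a filter on dim transcript clusters, an intensity trend, blocks, pair means, and arrays or pairs left out.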

Additional observations from a re-analysis of the deposited data

Results flagged for a closer look

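Of 114 groups of 4 arrays examined, 2 held an array whose distance from its nearest neighbour took up more of the group's range than Dixon's critical limit for 4 values. Control array 4 was low for Psme2b, with a gap of 0.93 of the range, and control array 1 was low for Psma8, with a gap of 0.831. Neither gene was above background. Chance sets apart about 1 in 20 such groups if arrays are independent, which close pairs are not.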

How the results depend on the processing

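Over the whole array, limma called 17 transcript clusters higher and 9 lower. Centring gave 40 higher, and leaving out dim transcript clusters gave 43 higher and 18 lower. The replicate block, the random block, pair means and leaving out control arrays 3 and 4 each gave 0 higher and 0 lower. Without butyroside D arrays 1 and 2 there were 476 higher and 405 lower, and without arrays 3 and 4, 3094 and 2408. Leaving out 1 array gave 0 to 3 higher and 0 to 2 lower. Proteasome genes past the threshold numbered 4 higher without butyroside D arrays 1 and 2, 8 higher and 6 lower without arrays 3 and 4, 1 higher without control arrays 1 and 2, and 0 under every other alternative run on the arrays. In the fit without control arrays 1 and 2, 6 of 47 had an unadjusted p under 0.05 (limma), against 18.6% of the array. Deviations of same-numbered samples from their group mean correlated at 0.0696 to 0.0839. Because the arrays fall into close pairs, these values are not independent and cannot decide whether equal numbers mark a pairing. The fit with the replicate block left 0 of 47 called, with 10 at an unadjusted p under 0.05 in place of 7, against 19.5% of the array in that fit.

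Without butyroside D arrays 1 and 2 the median change was 0.349 over all 47 genes, 0.383 for the ATPases and 0.143 for the Psmd genes. The Psmd median was 0.12 without butyroside D arrays 3 and 4, 0.153 without control arrays 1 and 2, 0.276 without control arrays 3 and 4, 0.162 with quantile normalization and 0.163 to 0.262 without 1 array. The core median was 0.0888 with quantile normalization, 0.0466 without control arrays 3 and 4, -0.193 without butyroside D arrays 3 and 4 and 0.00522 to 0.294 without 1 array. Unadjusted p in place of FDR gave 19 genes in the authors' deposited table.

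Log2 changes that turned sign were as follows, and the cause was not tested. Quantile normalization gave Psmb2 -0.0461, Psmc1 -0.0092 and Psme2 -0.0326. Without butyroside D arrays 1 and 2 they were Cops2 0.0228, Psma2 0.109, Psma5 0.477, Psma6 0.508, Psmb10 0.208, Psmc3ip 0.438, Psmc5 0.0752, Psmc6 0.477, Psmd1 -0.366, Psmd11 -0.0726, Psmd12 0.0661, Psmd3 -0.043, Psme2 -0.324, Psme3 -0.0502 and Psmg1 -0.264. Without butyroside D arrays 3 and 4 they were Psma1 -0.383, Psma3 -0.443, Psma7 -0.0431, Psmb1 -0.269, Psmb2 -0.737, Psmc1 -0.352, Psmd14 -0.00145, Psmd5 -0.0842, Psmd6 -0.166, Psmf1 0.126, Psmg4 -0.167 and Shfm1 -0.137. Without control arrays 1 and 2 they were Psmb10 0.268, Psmb2 -0.118, Psmc1 -0.194, Psmc5 0.0673, Psmd4 -0.184, Psmd5 -0.149 and Psmg3 0.0296. Without control arrays 3 and 4 they were Psma3 -0.366, Psmb7 -0.00757, Psmc3ip 0.222, Psmd12 0.0052, Psmd8 -0.00632, Psme2 -0.0345, Psme2b -0.00878 and Psmg4 -0.109. Leaving out 1 array gave ranges across 0 for Psma1 -0.0731 to 0.268, Psma3 -0.112 to 0.257, Psma5 -0.209 to 0.182, Psmb10 -0.157 to 0.0659, Psmb2 -0.263 to 0.305, Psmc1 -0.123 to 0.16, Psmc3ip -0.364 to 0.0478, Psme2 -0.118 to 0.114, Psme2b -0.0041 to 0.103, Psmf1 -0.128 to 0.00611 and Psmg1 -0.00504 to 0.307.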
